A study of Drosophila melanogaster with 3 samples.

Results

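The loci described here are the called binding intervals of the protein Aubergine (Aub) that lie on the Het scaffolds of the Drosophila melanogaster genome, build dm3. These scaffolds hold heterochromatic sequence next to the centromeres that could be assigned to a chromosome arm but not joined to it. Members were taken by scaffold name alone: every interval whose scaffold name ends in Het. They numbered 491 of 51962 intervals in the 3 libraries, with 102 of 4007 in replicate 1, 293 of 36157 in replicate 2 and 96 of 11798 in replicate 3. They fell in 43 genes on 5 scaffolds, 2LHet, 2RHet, 3LHet, 3RHet and XHet. No interval of the files used here lay on YHet.

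All 3 libraries came from cultured germline stem cells (GSC) that carried UASp-GFP-aub/+ on one chromosome pair and bam∆86hs-bam over nos-gal4 bam∆86 on another, and no drug was given. They held a GFP-tagged aub transgene behind a UASp promoter, which the Gal4 protein made from the nos-gal4 driver switches on in germ cells, and the bam∆86 allele together with a heat-shock bam construct. Loss of bam keeps germline stem cells from differentiating, and this background was common to all libraries. The libraries are iCLIP libraries, in which ultraviolet light (150 mJ/cm2 at 254 nm) links a protein covalently to bound RNA before the complex is purified and the RNA sequenced. They form 1 group of replicates numbered 1 to 3, and no untagged, input or RNA-seq library was used here. Whether separate cultures were used is not stated in the labels, so differences between libraries may be technical. The p-values of Fisher's exact test below rest on interval counts of single or summed libraries. They reflect counting error only and are not judged against the spread between replicates. Comparisons are therefore between libraries and between scaffolds, not between conditions.

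Heterochromatin is the compacted, repeat-rich part of the genome around centromeres. It is mostly silent, yet it contains protein-coding genes that need this packaging for normal expression, many of them with very long introns filled with transposon remnants. Transposon fragments in heterochromatin are also the main source of piRNAs, the small RNAs that Aub, a Piwi-family Argonaute protein, carries in germ cells to cleave transposon transcripts and to bind messenger RNAs. Ribosomal RNA genes and their truncated relatives lie in heterochromatin as well.

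The files give genes as FlyBase IDs without symbols. A RefSeq gene table (Release 6) paired 2 of the 43 Het gene IDs with a symbol, so the other 41 are described by ID, scaffold and position only. Markers of germ cells and of somatic ovary, muscle, fat body and nervous system could not be looked up by ID, and the labelled cell type was not checked here. The deposited score was 0 for every interval. An interval is hence present or absent, its height and the read depth are unknown, and an RNA that is abundant cannot be told apart from an RNA that is preferred.

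The first library had a Het share 3.14 times that of the second and 3.13 times that of the third. It was 2.55% in replicate 1 (95% Wilson interval 2.10 to 3.08), 0.810% in replicate 2 (0.723 to 0.908) and 0.814% in replicate 3 (0.667 to 0.993). Replicates 2 and 3 had nearly the same share, and replicate 1 lay above both intervals. The mean was 1.39% ± 1.00 (SD, n = 3), so the spread was almost as large as the mean. Fisher's exact test (two-sided, Benjamini-Hochberg adjusted over the 3 pairs) gave an adjusted p of 3.74e-19 for replicate 1 against replicate 2 and of 3.84e-15 against replicate 3. For replicates 2 and 3 the odds ratio was 0.996 and the adjusted p 0.953. This test compares these libraries and treats intervals as independent, which neighbouring intervals of 1 transcript are not.

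Most of the excess lay on XHet. XHet intervals numbered 59, 75 and 38 in the libraries in order, with shares of 1.47%, 0.207% and 0.322%. The overlapping genes FBgn0039944 and FBgn0039945 had 2, 17 and 4 of these each, so their stretch counts under both IDs. The XHet share of replicate 1 was 7.10 times that of replicate 2 (adjusted p = 4.98e-24, Fisher's exact test) and 4.57 times that of replicate 3 (adjusted p = 2.13e-13). Here replicate 2 was also below replicate 3, with a ratio of 0.644 (adjusted p = 0.0288, Fisher's exact test, adjusted over pairs of libraries but not over scaffolds). Without the gene FBgn0085813, described below, this order was reversed, with 0.160% in replicate 2 and 0.110% in replicate 3. On 2RHet the shares were 0.649%, 0.282% and 0.195%, again highest in replicate 1, by 2.30 times over replicate 2 (adjusted p = 7.54e-04) and 3.33 times over replicate 3 (adjusted p = 1.22e-04, Fisher's exact test). On 3LHet they were 0.324%, 0.185% and 0.161%, and no pair of libraries passed Fisher's exact test (adjusted p = 0.133 for replicate 1 against either library). The smallest contributions came from 2LHet, with 2, 18 and 4 intervals, and 3RHet, with 2, 31 and 12. The 2LHet shares were 0.0499%, 0.0498% and 0.0339%, nearly equal in replicates 1 and 2. On 3RHet the order was turned, with 0.0499% in replicate 1 below 0.0857% and 0.102% in the others. Neither scaffold showed a difference between libraries that passed the test, and with 2 intervals in replicate 1 none could be resolved.

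**Figure D1:**
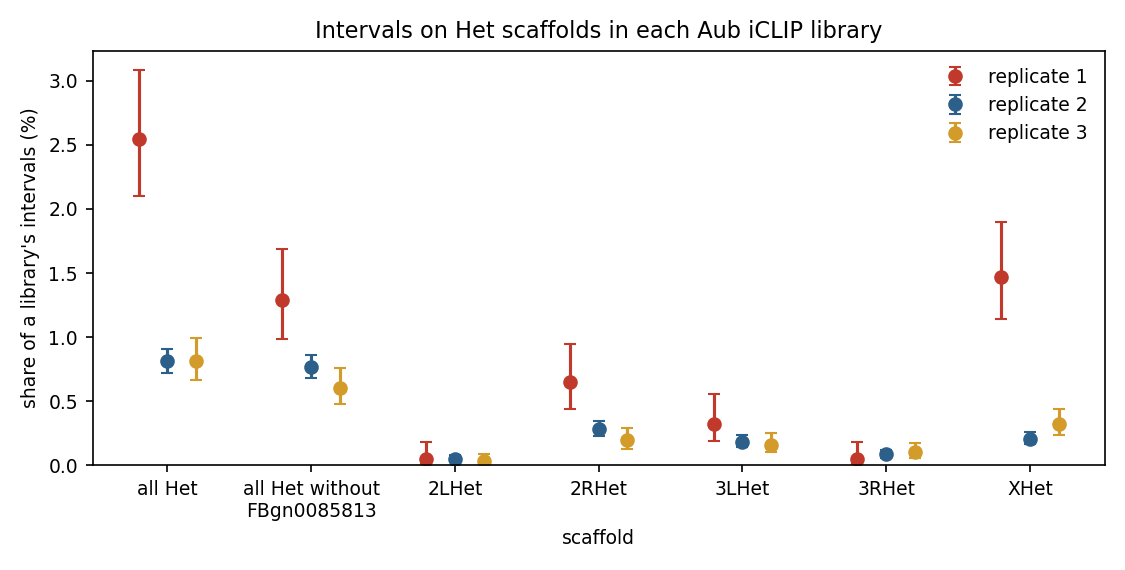
Share of each library's intervals (percent, linear axis from 0) on all Het scaffolds, on all Het scaffolds without gene FBgn0085813 and on each scaffold. Points are libraries and bars are 95% Wilson intervals, which cover counting error only. Replicate 1 stands at 2.55% for all Het scaffolds against 0.810% and 0.814%, and at 1.29% against 0.764% and 0.603% without FBgn0085813.

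As a share of the Het intervals, XHet held 57.8%, 25.6% and 39.6% in replicates 1, 2 and 3, a mean of 41.0% ± 16.2 (SD, n = 3). On 2RHet lay 25.5%, 34.8% and 23.96%, on 3LHet 12.7%, 22.9% and 19.8%, on 3RHet 1.96%, 10.6% and 12.5%, and on 2LHet 1.96%, 6.14% and 4.17%. XHet thus led in replicates 1 and 3, and 2RHet led in replicate 2. The strand was uneven in replicate 1, where 84.3% of Het intervals lay on the plus strand, against 56.0% in replicate 2 and 55.2% in replicate 3. Without FBgn0085813, a plus-strand gene, the values were 68.6%, 53.3% and 39.4%.

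A single gene, FBgn0085813, accounted for 51 of the 102 Het intervals of replicate 1. It lies on the plus strand of XHet, with intervals from position 190037 to 195829, and had 17 of the 293 Het intervals of replicate 2 and 25 of the 96 of replicate 3. The number of its intervals was highest in the smallest library and lowest in the largest, the reverse of the order of library size. Its share of all intervals in replicate 1 was 27.1 times that in replicate 2 (adjusted p = 3.38e-33, Fisher's exact test adjusted over all 6372 genes bound in either library) and 6.01 times that in replicate 3 (adjusted p = 7.26e-11, over 3404 genes). In both comparisons it had the lowest p of all genes tested. Both ratios count intervals, which in this gene were more numerous and shorter in replicate 1 than in the other libraries. In all, 0.0942% of genes had a higher share in replicate 1 than in replicate 2 at an adjusted p under 0.05 and 0.0294% in replicate 1 than in replicate 3, so that against replicate 3 FBgn0085813 was the only gene called. It was also the only Het gene called in either comparison. At an unadjusted p under 0.05 there were 6 of 43 Het genes against replicate 2, where 2.95% of all genes tested passed, and 5 of 30 against replicate 3, where 2.61% did. These Het genes all had the higher share in replicate 1, a direction largely fixed by the counts. Het genes without an interval in replicate 1 had at most 8 in replicate 2 and 4 in replicate 3, too few to pass as lower. Replicate 1 reached 21 of the 43 Het genes and 1459 of all 6502 genes, and the shares passing are not adjusted for this. FBgn0085813 had been singled out from earlier results on these data, and the test across genes was added after its values had been seen.

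The excess did not rest on this gene alone. Without FBgn0085813 the Het share was 1.29% in replicate 1 (0.982 to 1.69), 0.764% in replicate 2 (0.679 to 0.859) and 0.603% in replicate 3 (0.478 to 0.760). Replicate 1 was then 1.69 times replicate 2 (adjusted p = 0.00156, Fisher's exact test) and 2.14 times replicate 3 (adjusted p = 1.68e-04). The XHet scaffold no longer differed by Fisher's exact test, with shares of 0.202%, 0.160% and 0.110% (adjusted p = 0.533 and 0.404 for replicate 1 against replicates 2 and 3). What remained lay largely on 2RHet. Chromosome 4, a small chromosome that is heterochromatic along much of its length, also had its highest share in replicate 1, with 3.67%, 2.58% and 2.81%. The ratios there were 1.42 (adjusted p = 3.26e-04) over replicate 2 and 1.31 (adjusted p = 0.0113) over replicate 3 by Fisher's exact test. They are smaller than the Het ratios, and whether the sets differ in this was not tested.

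The distribution of intervals along FBgn0085813 differed between libraries as well as their number. Distances are given from position 190037, and the limits of the segments were chosen after seeing the intervals. The first 2000 nt held 31, 6 and 10 intervals in replicates 1, 2 and 3, which covered 776, 118 and 391 nt. Next, from 2000 to 3500 nt, came 4, 10 and 13 intervals covering 45, 602 and 236 nt. Beyond 3500 nt there were 16, 1 and 2 intervals covering 200, 25 and 26 nt. Of the nucleotides covered in this gene, the first segment held 76.0%, 15.8% and 59.9% in replicates 1, 2 and 3. The middle segment held 4.41%, 80.8% and 36.1%. Replicate 1 was thus weighted to the first segment, replicate 2 to the middle one, and replicate 3 lay between them. From 2000 to 2500 nt replicate 1 had no covered nucleotide, against 244 in replicate 2 and 65 in replicate 3. From 1500 to 2000 nt it covered 94 nt, where the others had none.

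**Figure D2:**
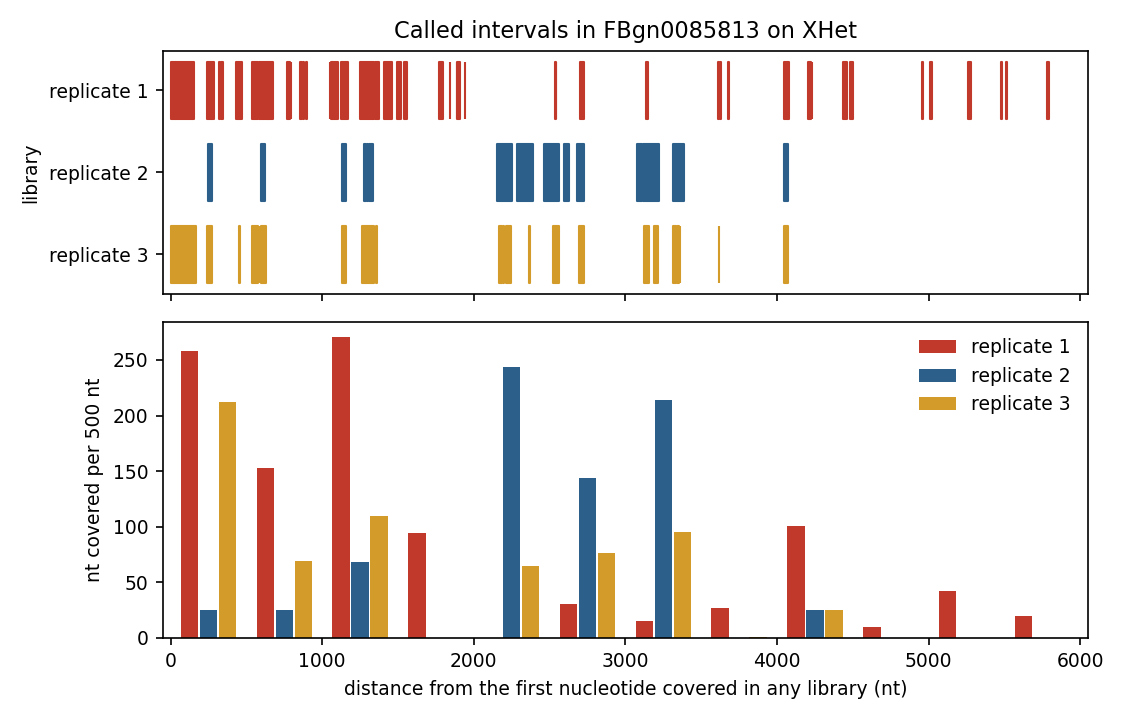
Called intervals in FBgn0085813 for each library (upper panel, blocks drawn to scale) and nucleotides covered in windows of 500 nt (lower panel, the last window being shorter), against distance in nt from the first nucleotide covered in any library. Replicate 1 covers 776 nt of the first 2000 nt, and replicate 2 covers 602 nt between 2000 and 3500 nt.

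In total the gene had 1021, 745 and 653 nt covered, or 17.6%, 12.9% and 11.3% of its span of 5793 nt. The covered nucleotides therefore differed less between libraries than the number of intervals. All intervals of replicates 1, 2 and 3 covered 84324, 639255 and 233981 nt, so the share of the gene was highest in replicate 1 by nucleotides too. In this gene replicate 1 had more and shorter intervals, with a median width of 13 nt against 32 nt in replicate 2 and 25 nt in replicate 3. Neighbouring intervals of replicate 1 were separated by at most 5 nt in 15 of 50 cases (30.0%), against 2 of 16 in replicate 2 and 5 of 24 in replicate 3. On scaffolds other than Het, gaps this short made up 4.95%, 21.8% and 6.21% of the gaps within a gene. When intervals within 50 nt were counted as 1, the gene had 20 groups in replicate 1, 10 in replicate 2 and 14 in replicate 3. With intervals of every gene joined in this way the Het shares were 1.90%, 0.845% and 0.767%. Replicate 1 remained highest, with an odds ratio of 2.34 against replicates 2 and 3 summed (p = 1.97e-08, Fisher's exact test), against 3.19 before joining.

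The same nucleotides of FBgn0085813 recurred in part. Replicates 1 and 3 had 447 covered nt in common, which were 43.8% of the nucleotides of replicate 1 and 68.5% of those of replicate 3. Replicates 1 and 2 shared 188 nt (18.4% and 25.2%), and all of these were covered in replicate 3 too. Replicates 2 and 3 shared 379 nt (50.9% and 58.0%). The interval from 194081 to 194105, 25 nt wide, had both edges identical in all 3 libraries, and it was the only Het interval of which this was true. Identical edges in 2 libraries were found from 190574 to 190610 for replicates 1 and 3 and from 191167 to 191192 for replicates 2 and 3.

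A short distance upstream on the same strand, with 5092 nt between their outermost intervals, lay FBgn0085765, from 184105 to 184944 of XHet. It had 4, 4 and 3 intervals in replicates 1, 2 and 3, covering 153, 223 and 201 nt. Intervals recurred at 3 places in all libraries, from 184105 to 184188, from 184714 to 184781 and from 184880 to 184944. In all 3 libraries 113 nt were covered, or 73.9%, 50.7% and 56.2% of the nucleotides of replicates 1, 2 and 3. In FBgn0085813 the corresponding 188 nt were 18.4%, 25.2% and 28.8%. Replicate 1 and replicate 3 had the interval from 184105 to 184188 in common to the nucleotide, and the interval of replicate 2 there was narrower, from 184137 to 184183. Its share was 9.02 times higher in replicate 1 than in replicate 2, the ratio that equal numbers of intervals must give, and it did not pass the test (adjusted p = 0.598, Fisher's exact test over all genes). Together with FBgn0085813 it held 53.9%, 7.17% and 29.2% of the Het intervals. Without both genes the Het share was 1.19%, 0.753% and 0.578%, still 1.58 times higher in replicate 1 than in replicate 2 (adjusted p = 0.00891, Fisher's exact test) and 2.06 times higher than in replicate 3 (adjusted p = 6.30e-04).

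Recurrence by gene came next. Of the 43 Het genes, 19 had an interval in every library (44.2%), against 20.9% of all 6502 genes with any interval. On chromosome 4 it was 42 of 72 genes (58.3%). A gene is counted only where a library had an interval in it, and the number of such genes is limited by replicate 1. That library reached 21 of the 43 Het genes and 1438 of the 6459 other genes. Of the genes it reached, 19 of 21 Het genes and 1342 of 1438 others recurred. Once reached by replicate 1, Het genes thus did not recur more often than others. Replicate 2 had intervals in all 43 Het genes, and replicate 3 in 28. No Het gene was found in replicate 1 or replicate 3 without being found in replicate 2. The 19 recurrent genes held 96 of 102 Het intervals in replicate 1 (94.1%), 211 of 293 in replicate 2 (72.0%) and 81 of 96 in replicate 3 (84.4%). By scaffold they were 7 of 13 genes on 3LHet, 6 of 13 on 2RHet, 4 of 9 on XHet, 1 of 6 on 3RHet and 1 of 2 on 2LHet.

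On 2RHet, FBgn0003256 had 6, 37 and 4 intervals in replicates 1, 2 and 3, spread over the plus strand from 198806 to 251950. It was the Het gene with most intervals in replicate 2, and its shares were 0.150%, 0.102% and 0.0339%. Intervals of all 3 libraries came together at 2 places. The stretch from 207063 to 207193 held 1, 5 and 2 of them, and the stretch from 247649 to 247898 held 1, 8 and 2. Even so, no nucleotide of this gene was covered in all 3 libraries. FBgn0039959, on the plus strand from 2776133 to 2821086, had 6, 13 and 3 intervals, and no nucleotide was covered in even 2 libraries. Its share in replicate 1 was 4.16 times that in replicate 2 and 5.89 times that in replicate 3, which did not pass the adjusted test (adjusted p = 0.831 and 1, Fisher's exact test over all genes). The closest approach was from 2800668 to 2800693, where 3 intervals of replicate 2 and 1 of replicate 3 lay within the joining distance of 50 nt. No place was common to the 3 libraries.

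FBgn0262124, on the minus strand of 2RHet from 3136909 to 3179608, had 4, 17 and 6 intervals. All libraries met from 3174825 to 3174932 (1, 2 and 1 intervals) and from 3179298 to 3179351 (2, 3 and 1). FBgn0058263, on the minus strand from 1291456 to 1335995, had 1, 11 and 3 intervals, and all libraries met from 1335893 to 1335995. There replicate 1 shared no covered nucleotide with either other library. FBgn0058263 was the only recurrent Het gene whose share was not highest in replicate 1, at 0.0250%, 0.0304% and 0.0254%. FBgn0262123 (2, 5 and 3 intervals from 476052 to 495112, plus strand) and FBgn0085638 (1, 2 and 2 from 1605764 to 1621635, minus strand) had no place common to the 3 libraries.

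On 3LHet the recurrent genes had few intervals each. FBgn0040022, on the plus strand from 594562 to 600606, had 3, 11 and 3 intervals, the most on this scaffold. It had no place common to the 3 libraries. FBgn0028697, within 955 nt of the plus strand from 2397956 to 2398910, had 2, 10 and 3. All libraries met there from 2398840 to 2398910, and 14 nt were covered in each. FBgn0063670, on the minus strand from 2189106 to 2190375, had 2, 5 and 5 intervals, of which each library had 2 from 2189106 to 2189205, with 25 nt covered in all. FBgn0028993 had 1 interval in each library, and all lay within 51 nt, from 252241 to 252291 of the plus strand. They covered 36, 51 and 49 nt, and the 36 nt of replicate 1 were covered in the others. FBgn0028993 was therefore the most compact recurrent locus on the Het scaffolds, with its single interval in each library at the same place. FBgn0024804 (3, 5 and 1 intervals over 134 kb), FBgn0058160 (1, 8 and 1) and FBgn0260987 (1, 5 and 1) recurred without a place common to the 3 libraries.

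On 3RHet the recurrent gene was FBgn0086378, with 2, 9 and 5 intervals on the minus strand from 1894604 to 1899000. The libraries met from 1894604 to 1894699 with 1, 3 and 1 intervals, and 23 nt were covered in all. On 2LHet it was FBgn0039958, with 2, 17 and 4 intervals on the minus strand from 19680 to 32860. Both intervals of replicate 1 lay from 32716 to 32860, together with 3 of replicate 2 and 1 of replicate 3.

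The remaining recurrent genes lay on XHet and overlapped each other. FBgn0039944 and FBgn0039945, which the gene table lists as the protein-coding gene CG17159, lay on the same minus-strand stretch from position 64580 and had 2, 17 and 4 intervals each. Neither had a place common to the 3 libraries. The 2 intervals of replicate 1 and the 4 of replicate 3 were the same for both genes, so each of these intervals was entered under both IDs. In replicate 2, 16 of the 17 intervals of FBgn0039944 overlapped one of FBgn0039945, but only 1 had the same edges, and the covered nucleotides were 283 and 315. The RNA behind these intervals cannot be assigned to either gene, and counting the pair once left 18 recurrent genes. In the gene table CG17159 lies on chromosome X.

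**Figure D3:**
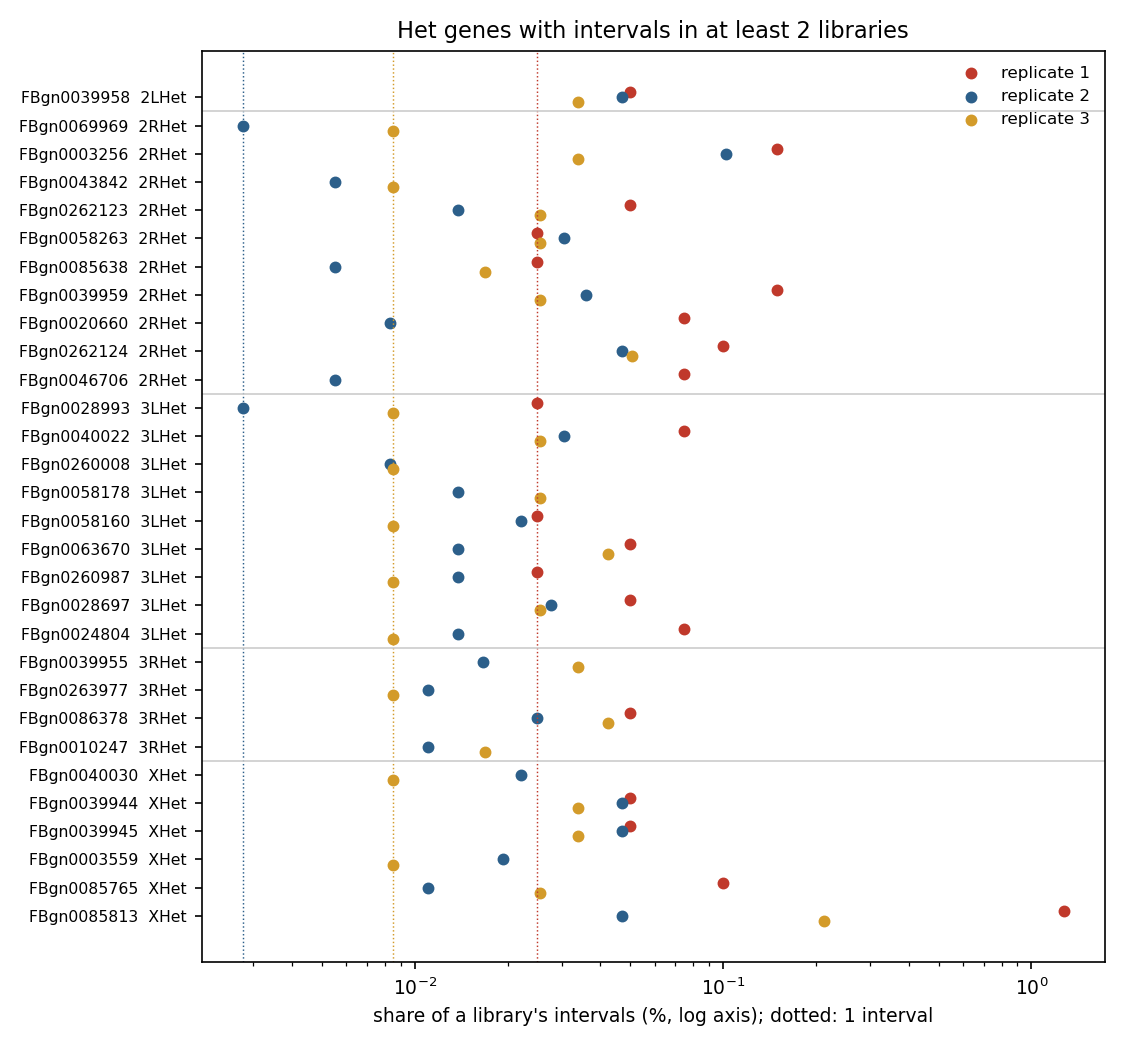
Share of each library's intervals (percent, log axis) for the 30 Het genes with intervals in at least 2 libraries, ordered by scaffold and position. Dotted lines mark the share of 1 interval in each library, 0.0250%, 0.00277% and 0.00848% in replicates 1, 2 and 3. FBgn0085813 lies to the right of all others in replicates 1 and 3, at 1.27% and 0.212%, and FBgn0003256 in replicate 2, at 0.102%.

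Of the 19 recurrent genes, 18 had their highest share in replicate 1. This direction is partly fixed by the counting, since 1 interval in replicate 1 is worth 9.02 intervals in replicate 2 and 2.94 in replicate 3, and a gene counts as recurrent only if replicate 1 holds at least 1. Among the 1342 recurrent genes of other scaffolds, 843 had their highest share in replicate 1 (62.8%). Of the 19, 5 had 1 interval in replicate 1 and 7 had 2, so a single interval decided much of their value there.

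The other 24 Het genes were missing from at least 1 library. FBgn0020660 and FBgn0046706, both on the plus strand of 2RHet (2903039 to 2915425 and 3199647 to 3215167), each had 3 intervals in replicate 1 and none in replicate 3, although replicate 3 held 2.94 times as many intervals. In replicate 2 they had 3 and 2. Their unadjusted p for replicate 1 against replicate 3 was 0.0163 each (Fisher's exact test), and neither passed after adjustment over all genes (adjusted p = 1). In neither gene did the intervals of replicates 1 and 2 share a nucleotide. A further 9 genes were found in replicates 2 and 3, with 1 to 8 intervals in replicate 2 and 1 to 4 in replicate 3. Among them was FBgn0039955, listed as the protein-coding gene CG41099 with the synonym Rabankyrin, the name of an endosomal protein in mammals. It had 6 intervals in replicate 2 and 4 in replicate 3 on the minus strand of 3RHet from 1685190 to 1705968, with no nucleotide in common, and none in replicate 1. FBgn0040030 on XHet had 8 and 1, FBgn0003559 on XHet 7 and 1, FBgn0058178 on 3LHet 5 and 3, and FBgn0010247 on 3RHet 4 and 2, with 9 nt of the last covered in both libraries. The last 13 genes were found in replicate 2 alone, with 1 to 5 intervals each. The one with most was FBgn0040020, on the minus strand of 3LHet from 600471 to 601274, where the span of its intervals overlapped the end of that of FBgn0040022 on the plus strand. Absence from the smaller libraries cannot be separated from their size.

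Across the 43 Het genes the numbers of intervals were positively related between libraries. Spearman's rho was 0.57 for replicates 1 and 2, 0.63 for replicates 1 and 3 and 0.74 for replicates 2 and 3. Pearson's r was 0.36, 0.93 and 0.49 for these pairs, and 0.66, 0.57 and 0.65 over the 42 genes without FBgn0085813. The r of replicates 1 and 3 thus rested on that gene. These are descriptions across genes, which differ in length and transcript level and are not replicates.

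Recurrence by position was examined by joining intervals of all libraries that lay within 50 nt on a strand. The Het intervals formed 228 regions, and 21 of these were common to the 3 libraries (9.21%), against 4.69% of all 26114 regions. Among regions with an interval of replicate 1, it was 21 of 62 on Het scaffolds and 1203 of 3122 elsewhere. FBgn0085813 contained 8 of the 21 and FBgn0085765 3, so that 11 lay within 10011 nt of XHet and the other 10 on the remaining scaffolds. The 21 regions were 35 to 309 nt long, with a median of 103 nt, and fell in 10 genes. Without FBgn0085813 it was 13 of 206 regions (6.31%), and 3 of these 13 lay in the neighbouring FBgn0085765. On chromosome 4 it was 35 of 642 regions (5.45%). The surplus over all regions thus lay largely in these 2 XHet genes. Regions of replicate 2 alone were the most frequent (122), followed by those of replicate 1 alone (31) and replicate 3 alone (26). Within FBgn0085813 there were 22 regions, of which 9 were found in replicate 1 alone and none in replicate 2 or replicate 3 alone.

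**Figure D4:**
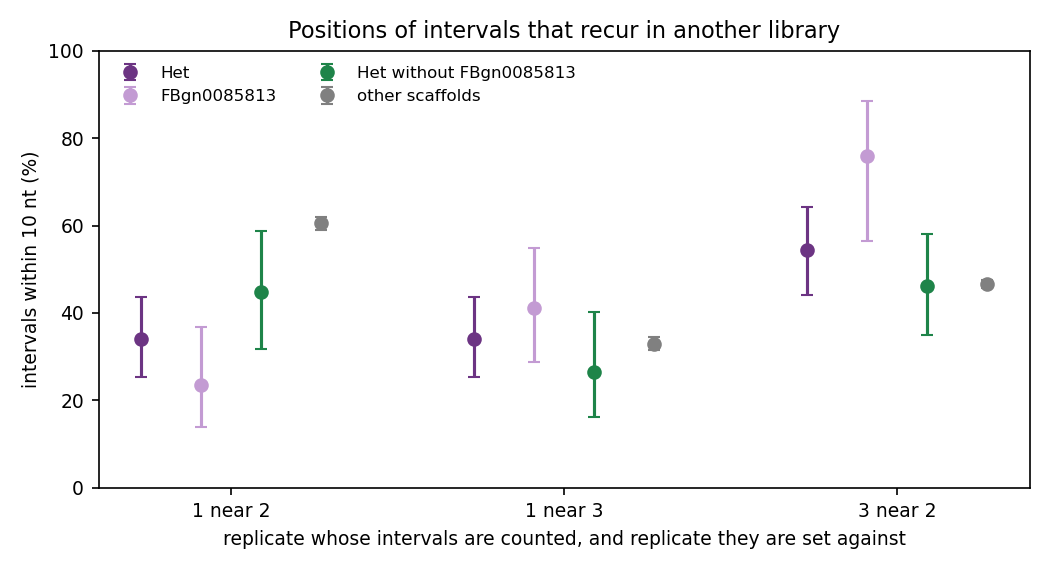
Percentage of the intervals of a library within 10 nt of an interval of another library on the same strand, for Het intervals, for FBgn0085813, for Het intervals without that gene and for intervals of other scaffolds. Points are pairs of libraries and bars 95% Wilson intervals. For replicate 1 set against replicate 2, Het intervals stand at 34.0% and those of other scaffolds at 60.6%.

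Nearness was also counted for single intervals, with a limit of 10 nt on the same strand and every position counted once. Of the 100 distinct Het intervals of replicate 1, 34 were near an interval of replicate 2 (34.0%, 95% Wilson interval 25.5 to 43.7), against 59.9% of all intervals of replicate 1 and 60.6% (59.0 to 62.1) of those on other scaffolds. Also 34 were near an interval of replicate 3, against 33.0% of all intervals. Of the 92 distinct Het intervals of replicate 3, 50 were near one of replicate 2 (54.3%, 44.2 to 64.1), against 46.6% of all. Het intervals were thus below other scaffolds for replicates 1 and 2 and at or above them for the other pairs. The mean over the pairs was 40.8% ± 11.7 (SD, n = 3 pairs, which share libraries) on Het scaffolds and 46.7% ± 13.8 on others. The mean difference was -5.91 points, with an exact sign-flip permutation p of 1 (two-sided), where 3 pairs cannot give less than 0.25.

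FBgn0085813 contributed to this pattern in opposite ways. Its intervals in replicate 1 were near one of replicate 2 in 12 of 51 cases (23.5%, 14.0 to 36.8) and near one of replicate 3 in 21 of 51 (41.2%, 28.8 to 54.8), and those of replicate 3 were near one of replicate 2 in 19 of 25 (76.0%, 56.6 to 88.5). For the other Het genes the shares were 44.9% (22 of 49), 26.5% (13 of 49) and 46.3% (31 of 67). These lay below the other scaffolds in each of the 3 pairs, with a mean difference of -7.46 points (exact sign-flip permutation p = 0.25, the smallest possible). For replicates 1 and 2 the Wilson interval of 31.9 to 58.7 lay below that of the other scaffolds, and for the other pairs the intervals overlapped. Lower values were not particular to the Het scaffolds. Chromosome 4 stood at 51.7%, 27.9% and 44.7% for these pairs, against 60.6%, 33.0% and 46.6% on all scaffolds other than Het.

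Interval widths on the Het scaffolds were set against those of other scaffolds in the same library. In replicate 1, intervals of 24 or 25 nt made up 55.5% on other scaffolds, 56.9% on Het scaffolds without FBgn0085813 and 7.84% (4 of 51) in that gene. In replicate 3 they made up 49.8%, 42.3% and 16.0%. Replicate 2 had few intervals of this width anywhere, with 11.2%, 5.43% and 17.6%. Wide intervals of 50 nt or more made up 3.92% of the Het intervals of replicate 1 (4 of 102) against 0.589% on other scaffolds, and 5.21% (5 of 96) against 0.761% in replicate 3. In replicate 2 they made up 4.44% (13 of 293) against 5.38%. FBgn0085813 held 3 of the 4 in replicate 1, 5 of the 13 in replicate 2 and 2 of the 5 in replicate 3. Without it the wide intervals made up 1.96%, 2.90% and 4.23% of the Het intervals, on 1, 8 and 3 intervals. These shares were still above the other scaffolds in replicates 1 and 3 and below them in replicate 2. However, the 1 interval of replicate 1 (84 nt) and the 3 of replicate 3 (84, 53 and 64 nt) all lay in FBgn0085765. No other Het gene had a wide interval in these libraries. The widest Het interval, of 165 nt, lay at the first position of FBgn0085813 in replicate 3, where replicate 1 had 2 intervals of 33 and 121 nt that were 1 nt apart.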

How the data were processed

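Aub iCLIP was measured in 3 libraries of cultured germline stem cells, each with a 4-nt experimental and a 5-nt random barcode, per the labels. The authors deposited called intervals as positions, strand and gene ID. CASAVA 1.4, TopHat2 2.0.13 and build dm3 were named, per the submitters' processing notes. The sources used here do not name the caller, its threshold, the annotation or any duplicate removal. In every row the deposited score is 0, so it was not used, and depth in reads is unknown.

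Positions are printed 1-based. Intervals entered under more than 1 gene at the same position were kept in counts per gene and counted once for positions, which left 51495 of 51962 intervals in all and 484 of 491 on Het scaffolds, where the repeats were those of FBgn0039944 and FBgn0039945. In replicate 2 most intervals of these 2 genes overlapped without identical edges and so still counted under both IDs. Shares have 95% Wilson intervals. Libraries were compared with Fisher's exact test, and genes with that test adjusted over all genes bound in either library. Named genes are all 19 found in all 3 libraries, the 2 with a symbol and up to 3 leading genes per library among the rest. The members and lists were chosen with earlier results of these data known. The fixed lists of heterochromatin, Stellate and cell type genes are void, since the gene table gave no ID for any of their members. It gave an ID for 8 of 14 Y-linked and 1 of 7 ribosomal RNA members, and none of these had an interval. The files had no interval on YHet, U or Uextra, and most Het genes had no symbol. This lookup therefore cannot show that RNA of either class was unbound. The other members of these 2 lists could not be looked up. The overlap search, the joining and Fisher's test were tested on simulated data. Scripts ran in Python 3.11.15 with scipy 1.17.1 for tests, pandas 2.3.3 and numpy 2.4.6 for tables, and matplotlib 3.10.9 for plots.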

Additional observations from a re-analysis of the deposited data

How the results depend on the processing

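Of 61 alternative values, 54 kept their direction and side of the threshold or moved by less than the spread between libraries (counts by less than 1.5 times). A mean over 3 libraries cannot move by 1 SD when 1 is dropped. The mean Het share (1.39%) was 0.885% without FBgn0085813, 0.812% without replicate 1 and 1.68% without replicate 2 or replicate 3. These values count as unmoved only because the SD, 1.00 points, is large. The recurrent genes (19) became 30 when presence in any 2 libraries sufficed, and 19 to 28 when 1 library was dropped. Common regions (21) became 39 without replicate 1, with a range of 24 to 39 when 1 library was dropped, and 17 when joined within 0 nt or within 100 nt. The near share (40.8%) was 5.87% when the start had to be identical, and 34.0% to 54.3% when 1 library was dropped. Without FBgn0085813, XHet held 18.3% of the Het intervals, 2RHet 40.1% and 3LHet 25.5%, in place of 41.0%, 28.1% and 18.5%. By construction, the number of recurrent genes cannot fall when 1 library is dropped, and the near share cannot rise when starts must be identical. The shifts in scaffold shares show the weight of FBgn0085813. Common regions and the near share were highest without replicate 1, the smallest library, which cannot be separated from library size. The odds ratio of replicate 1 against the others (3.19) ranged from 1.68 to 3.20 over its 8 alternatives, of which joining and leaving out both XHet genes were chosen after seeing the data, and p stayed below 0.05, at most 0.0118 with genes in place of intervals. No paired analysis was possible because the libraries form a single group.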
